A study of Homo sapiens with 4 samples.

Results

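The genes described here are 6 genes of the p53 pathway, MDM2, CDKN1A, GDF15, RRM2B, PPM1D and ATM, in a human lymphoma line after knockdown of MYC. They were taken as the features of the value table whose platform gene symbol is one of these 6, which gave 23 of 15154 features and 6 of 4603 named genes. OCI-Ly10 is an established cell line from a diffuse large B-cell lymphoma. In each of 4 arrays with 2 channels, Cy5-labelled RNA of cells electroporated with 4 uM of a pool of siRNAs against MYC was hybridised with Cy3-labelled RNA of control cells. The control cells had received 4 uM of a nonspecific siRNA against Renilla luciferase (arrays at 24 h and 8 h) or Amaxa's Solution T without siRNA (arrays at 24 h and 6 h), and they went through the same electroporation. Each combination was measured on 1 array, dyes were swapped on 0 arrays, and each time point had its own electroporated cells. Ratios carry no transcript level, so the B-cell identity of the line could not be checked against its markers, and fewer cells with a transcript cannot be told apart from less of it per cell.

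The p53 protein is a transcription factor that DNA damage and other stresses stabilise. ATM is the kinase that signals DNA double-strand breaks to p53, MDM2 is the ubiquitin ligase that marks p53 for degradation, and PPM1D encodes the phosphatase WIP1, which removes phosphates placed by ATM. MDM2, PPM1D, CDKN1A, GDF15 and RRM2B are themselves targets that p53 activates. MYC is known to repress CDKN1A, and strong MYC activity is known to engage p53 through the ARF product of CDKN2A.

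Values are the authors' deposited log ratios, taken here as log2 of MYC siRNA over control. The log base is not stated, and folds and percents of control rest on base 2. The direction is likely rather than stated, since it follows from the dyes in the labels and from MYC, the targeted gene. MYC had log2 ratios of -0.35 and -1.03 on the 24 h arrays against control siRNA and no siRNA, and -0.94 at 8 h and -1.26 at 6 h. The 4 arrays averaged -0.89 ± 0.39 (SD, n = 4), or 53.8% of control (limma adjusted p = 0.0146, and 0.053 with a mean of -0.77 without the 6 h array). Values were present for 12028 to 12784 features per array. The 24 h array against no siRNA had the widest spread over features, with an SD of 0.447 against 0.288 to 0.327 on the others.

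Of the 6 genes, GDF15 rose with MYC siRNA and the other 5 did not pass the test. GDF15 averaged a log2 ratio of 0.31 (123.7% of control), RRM2B -0.19 and PPM1D -0.16, and CDKN1A, MDM2 and ATM lay between 0.03 and 0.13. In the whole table, 5.56% of the 6798 tested genes and unnamed features were higher at an adjusted p under 0.05 and 10.2% were lower. The median of the 6 genes was 0.04, against -0.003 over all tested. The 82 member values were small, with 84.1% of them within 0.5 of 0 on the log2 scale, close to the 86.5% found over all features.

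**Figure D1:**
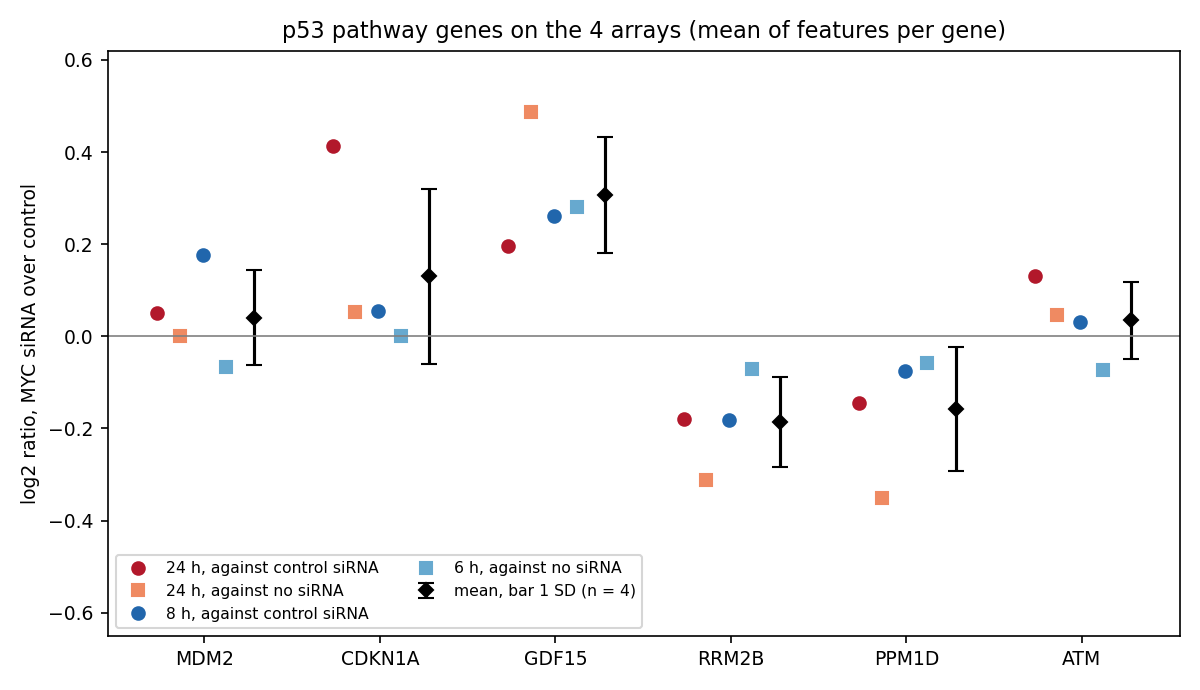
Log2 ratio of MYC siRNA over control (vertical axis) of the 6 genes on each of the 4 arrays, as the mean of each gene's features with a value, with the mean over arrays and 1 SD (n = 4). GDF15 lies above 0 on the 4 arrays (0.20 to 0.49), RRM2B and PPM1D lie below 0 on the 4 arrays, and MDM2, CDKN1A and ATM straddle 0.

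Among single features, 19 of the 23 had a value on all 4 arrays and were tested, 3 had values on some arrays, and 1 feature of MDM2 was empty on all. Of the 19, 3 rose, 3 fell and 13 did not pass (limma, adjusted over 10161 features). The shares over all features were 7.09% higher and 12.3% lower. The 6 that passed belonged to GDF15 (2 higher), PPM1D (1 lower) and ATM (1 higher and 2 lower). Features of 1 gene read the same RNA and are not independent. Above 0 on all 4 arrays were 4 of the 19 and below 0 on all were 5, where 19.6% and 24.6% of all features were so.

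**Figure D2:**
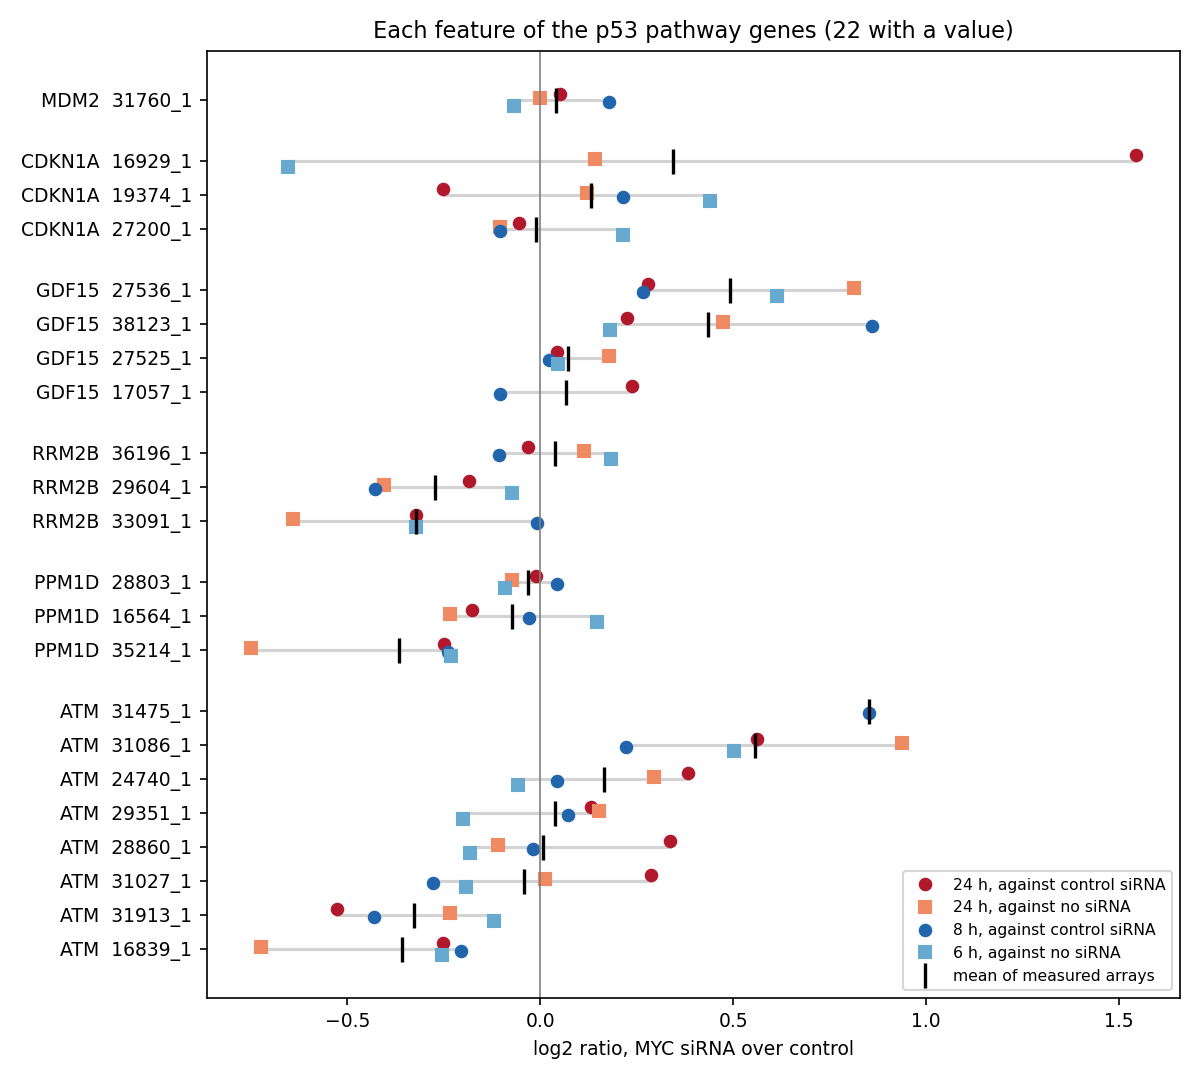
Log2 ratio of MYC siRNA over control (horizontal axis) of each of the 22 member features with a value, grouped by gene, with 1 point per array and a black bar at the mean over the arrays measured. ATM features run from a mean of -0.36 (16839_1) to 0.56 (31086_1) among those complete on 4 arrays, and CDKN1A feature 16929_1 has the widest range, from -0.65 to 1.54.

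GDF15 encodes a secreted stress cytokine of the TGF-beta superfamily, used as a readout of p53 and of other stress pathways. Its log2 ratios were 0.20 and 0.49 on the 24 h arrays against control siRNA and no siRNA, and 0.26 at 8 h and 0.28 at 6 h. All 4 arrays were above 0, and the 24 h array against no siRNA was the highest. The mean was 0.31 ± 0.13 (SD, n = 4), with a 95% interval of 0.11 to 0.50 and an adjusted p of 0.0452 in limma. An exact sign-flip permutation test gave a two-sided p of 0.125, the smallest that 4 arrays allow. The call was lost when any 1 array was left out (adjusted p from 0.0957 to 0.13), while the mean stayed between 0.25 and 0.34. With the median of its features in place of their mean, GDF15 was at 0.26 with an adjusted p of 0.0822.

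The GDF15 features differed in size. Feature 27536_1 had 0.28 and 0.81 on the 24 h arrays against control siRNA and no siRNA, and 0.27 at 8 h and 0.61 at 6 h (mean 0.49 ± 0.27, SD, n = 4; limma adjusted p = 0.0197). Its values were higher on both arrays against no siRNA than on both against control siRNA. The control term of this feature did not pass (limma adjusted p = 0.437). Over all tested genes and unnamed features, 34.6% did not overlap between the 2 kinds of control. Feature 38123_1 had 0.22 and 0.47 at 24 h, and 0.86 at 8 h and 0.18 at 6 h (mean 0.44 ± 0.31, SD, n = 4; limma adjusted p = 0.0338). Here the 8 h array was the highest, so the 2 features that rose placed the arrays in different orders. Feature 38123_1 did not pass once any 1 array was left out (limma adjusted p from 0.0526 to 0.124, mean 0.29 without the 8 h array). Feature 27536_1 lost its call with either array against no siRNA left out (limma adjusted p = 0.0797 for 24 h and 0.0736 for 6 h). Feature 27525_1 stayed between 0.02 and 0.18 and did not pass (limma adjusted p = 0.601). Feature 17057_1 had values on the control siRNA arrays alone, 0.24 at 24 h and -0.11 at 8 h. Averaging the 3 complete features gave GDF15 a mean of 0.33 ± 0.13 (SD, n = 4; limma adjusted p = 0.0343).

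The promoter of GDF15 is shown because it is the member gene that passed the test. The sequence is RefSeq's for GRCh38.p14, from 250 bases before to 50 after the start site, chr19:18385908-18386207, plus strand. Capitals mark GC boxes, searched as GGGCGG on both strands, so that the reverse strand reads CCGCCC.
GDF15: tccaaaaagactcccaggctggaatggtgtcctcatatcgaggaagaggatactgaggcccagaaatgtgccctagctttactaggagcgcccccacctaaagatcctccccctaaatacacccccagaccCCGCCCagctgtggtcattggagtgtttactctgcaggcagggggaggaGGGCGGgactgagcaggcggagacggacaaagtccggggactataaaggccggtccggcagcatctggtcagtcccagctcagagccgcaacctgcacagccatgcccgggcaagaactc
GC boxes of this kind occurred in 45.0% of 35114 RefSeq promoters of the same length. The E-box CACGTG, the palindromic site that MYC binds with MAX, had 0 matches in this window and in the other 8 member promoters, and was found in 7.26% of all. A match, or its absence from these letters, is a description of the window and does not bear on binding. Windows of 5 of the 6 genes were used here, with 9 start sites in all, and RRM2B was not among those searched.

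CDKN1A encodes p21, the inhibitor of cyclin-dependent kinases through which p53 arrests the cell cycle. Its log2 ratios were 0.41 and 0.05 on the 24 h arrays against control siRNA and no siRNA, and 0.06 at 8 h and -0.0003 at 6 h. The 24 h array against control siRNA stood apart from the other 3, which lay close to 0. The mean was 0.13 ± 0.19 (SD, n = 4) with a 95% interval of -0.09 to 0.35, and it did not pass (limma adjusted p = 0.355). Leaving out the 24 h array against control siRNA gave a mean of 0.04. The high value at 24 h against control siRNA came from feature 16929_1, which had 1.54 and 0.14 on the 24 h arrays, -0.65 at 6 h and no value at 8 h. Without this incomplete feature CDKN1A was at -0.15 and 0.01 on the 24 h arrays against control siRNA and no siRNA, and at 0.06 at 8 h and 0.33 at 6 h, with a mean of 0.06 (limma adjusted p = 0.694).

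The complete features of CDKN1A were 19374_1 and 27200_1. Feature 19374_1 had -0.25 and 0.12 at 24 h against control siRNA and no siRNA, and 0.21 at 8 h and 0.44 at 6 h (limma adjusted p = 0.44). Feature 27200_1 had -0.05 and -0.11 at 24 h, and -0.10 at 8 h and 0.21 at 6 h (limma adjusted p = 0.943). In both, the 6 h array was the highest, whereas it was the lowest in feature 16929_1. The order of the arrays for CDKN1A therefore depended on which feature was read.

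The CDKN1A promoter is shown because MYC is known to act on its start region. It is RefSeq's for GRCh38.p14, chr6:36678464-36678763, plus strand, with the 4 GC boxes in capitals, a pair of which overlap.
CDKN1A: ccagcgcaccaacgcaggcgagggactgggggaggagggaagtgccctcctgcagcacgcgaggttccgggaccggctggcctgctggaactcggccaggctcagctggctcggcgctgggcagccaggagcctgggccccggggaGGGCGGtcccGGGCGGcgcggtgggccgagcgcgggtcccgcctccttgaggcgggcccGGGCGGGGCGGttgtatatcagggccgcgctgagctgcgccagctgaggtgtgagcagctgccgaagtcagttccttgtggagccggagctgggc
Of the 9 member promoters, 7 held a GC box, where 45.0% of all 35114 promoters did. Windows of MDM2 among them overlap and share a GC box, so the 7 are not independent and the count was not tested.

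RRM2B encodes p53R2, the small subunit of ribonucleotide reductase that supplies deoxynucleotides outside S phase and for DNA repair. Its log2 ratios were -0.18 and -0.31 on the 24 h arrays against control siRNA and no siRNA, and -0.18 at 8 h and -0.07 at 6 h. All 4 lay below 0, the 24 h array against no siRNA furthest. The mean was -0.19 ± 0.10 (SD, n = 4), or 87.9% of control, with a 95% interval of -0.38 to 0.005, and it did not pass (limma adjusted p = 0.149; exact sign-flip permutation p = 0.125).

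RRM2B features 33091_1 and 29604_1 lay below 0 on the 4 arrays, and feature 36196_1 did not. Feature 33091_1 had -0.32 and -0.64 at 24 h against control siRNA and no siRNA, and -0.01 at 8 h and -0.32 at 6 h, with a mean of -0.32 (limma adjusted p = 0.068). Feature 29604_1 had -0.19 and -0.41 at 24 h, and -0.43 at 8 h and -0.07 at 6 h, with a mean of -0.27 (limma adjusted p = 0.0818). Both passed when time and kind of control were terms of the model (limma adjusted p = 0.015 and 0.0439). In that model 3371 of all 10161 single features passed, against 1971 in the main one. Feature 36196_1 ranged from -0.11 to 0.18 around a mean of 0.04.

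PPM1D had log2 ratios of -0.15 and -0.35 on the 24 h arrays against control siRNA and no siRNA, and -0.07 at 8 h and -0.06 at 6 h. Both 24 h arrays were lower than both early ones. The mean was -0.16 ± 0.14 (SD, n = 4), or 89.7% of control, with a 95% interval of -0.36 to 0.04, and it did not pass (limma adjusted p = 0.228). Without the 24 h array against no siRNA it was -0.09.

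Of the PPM1D features, 35214_1 fell, with -0.25 and -0.75 at 24 h against control siRNA and no siRNA, and -0.24 at 8 h and -0.23 at 6 h (mean -0.37 ± 0.26, SD, n = 4; limma adjusted p = 0.0446). The 24 h array against no siRNA lay apart from the other 3. Without that array the mean was -0.24 (limma adjusted p = 0.154), and the feature did not pass without any of the others (limma adjusted p from 0.0671 to 0.085). The other features, 16564_1 and 28803_1, averaged -0.07 and -0.03 with values of both signs.

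MDM2 was read by 1 feature, 31760_1. It had log2 ratios of 0.05 against control siRNA and 0 against no siRNA on the 24 h arrays, and 0.18 at 8 h and -0.07 at 6 h. Both signs occurred, and the 8 h array was the highest. The mean was 0.04 ± 0.10 (SD, n = 4), or 102.8% of control (limma adjusted p = 0.763). The 95% interval ran from -0.15 to 0.23.

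MDM2 has a second, internal promoter known as its p53-responsive one, and it is shown because the member windows with a match to the p53 response element lay there. It is RefSeq's for GRCh38.p14, chr12:68808767-68809066, plus strand. The match, in capitals, starts 94 bases before the start site, with 2 mismatches over its 2 half-sites and a spacer of 0 bases.
MDM2: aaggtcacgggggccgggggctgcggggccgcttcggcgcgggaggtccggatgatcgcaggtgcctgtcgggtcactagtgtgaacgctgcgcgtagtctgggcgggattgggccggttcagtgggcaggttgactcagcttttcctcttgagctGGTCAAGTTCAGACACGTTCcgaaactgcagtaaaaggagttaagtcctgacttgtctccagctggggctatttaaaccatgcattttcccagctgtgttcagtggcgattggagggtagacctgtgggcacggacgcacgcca
The search for the element, which reads alike on both strands, allowed 2 mismatches and a spacer of up to 13 bases, with the C and G of each half-site fixed, and 2.93% of all 35114 promoters held a match. An overlapping MDM2 window with a neighbouring start site holds the same match. The value of MDM2 printed above does not separate transcripts of its promoters.

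ATM was read by 8 features, 7 of them complete, and these disagreed in direction. Averaged over features, its log2 ratios were 0.13 and 0.05 on the 24 h arrays against control siRNA and no siRNA, and 0.03 at 8 h and -0.07 at 6 h. The mean was 0.03 ± 0.08 (SD, n = 4), with a 95% interval of -0.15 to 0.22, and it did not pass (limma adjusted p = 0.791). This near-zero mean joins features that rose with features that fell.

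ATM feature 31086_1 rose, with 0.56 and 0.94 at 24 h against control siRNA and no siRNA, and 0.22 at 8 h and 0.50 at 6 h (mean 0.56 ± 0.29, SD, n = 4; limma adjusted p = 0.0155). Feature 16839_1 fell, with -0.25 and -0.72 at 24 h, and -0.21 at 8 h and -0.26 at 6 h (mean -0.36 ± 0.24, SD, n = 4; limma adjusted p = 0.0456). Feature 31913_1 also fell, with -0.53 and -0.23 at 24 h, and -0.43 at 8 h and -0.12 at 6 h (mean -0.33 ± 0.18, SD, n = 4; limma adjusted p = 0.0483). The rising feature lay above 0 on all 4 arrays and the falling ones below 0, so their arrays did not overlap. These features were picked by their calls on the same arrays, so this adds no support. The falls of 16839_1 and 31913_1 did not pass once any 1 array was left out (limma adjusted p from 0.063 to 0.158 and from 0.0656 to 0.189). The rise of 31086_1 lost its call with either array against no siRNA left out (mean 0.43 and limma adjusted p = 0.0631 for 24 h, 0.57 and 0.0538 for 6 h) and kept it with either of the others left out.

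The other complete ATM features were 31027_1, 28860_1, 29351_1 and 24740_1, with means of -0.04, 0.01, 0.04 and 0.17, and they did not pass. Feature 31475_1 had a value on the 8 h array alone, 0.85, which enters the ATM average there. Without this incomplete feature ATM was at -0.09 at 8 h, and its mean was 0.005 (limma adjusted p = 0.972). The SD between the 7 feature means was 0.31, larger than in 41 of the 43 genes with 7 or more complete features, whose median was 0.20. Features called in both directions were found in 1.85% of genes with 2 or more complete features and in 8.05% of the 174 genes with 5 or more, ATM being 1 of 14. The SD between feature means was 0.23 for GDF15, 0.20 for RRM2B and 0.18 for PPM1D, against a median of 0.19 over the 814 genes with 3 or more. The sources used here do not say which part of the transcript a feature reads.

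The series also allows the question whether the response differed between 24 h and the early arrays (8 h and 6 h). For 0 of the 6 genes did the time term pass in limma (adjusted p from 0.785 to 0.974), and 0 of them had an unadjusted p under 0.05 (0.284 at the lowest). Over all genes and unnamed features, 0.118% passed, 0.0883% lower and 0.0294% higher at 24 h. CDKN1A averaged 0.23 at 24 h and 0.03 on the early arrays, a difference of 0.21 (95% interval -0.19 to 0.60), which turned to -0.26 without its incomplete feature. PPM1D averaged -0.25 at 24 h and -0.07 on the early arrays, a difference of -0.18 (-0.57 to 0.20). RRM2B averaged -0.25 and -0.13 in the same order, and GDF15 0.34 and 0.27. The 24 h and early arrays did not overlap for PPM1D and ATM, 2 of the 6, a share near the 36.5% of all genes and features. With intervals this wide, smaller differences in time were not detectable.

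The kind of control gave a similar picture. For 0 of the 6 genes did the control term pass in limma (adjusted p from 0.812 to 0.991, unadjusted p of 0.279 at the lowest), where 0.0883% of the table passed. CDKN1A averaged 0.23 on the control siRNA arrays and 0.03 on the no siRNA arrays, a difference of 0.21 that turned to -0.22 without its incomplete feature and to -0.17 with feature medians. MDM2 averaged 0.11 on the control siRNA arrays and -0.03 on the no siRNA arrays. GDF15 averaged 0.23 on the control siRNA arrays and 0.38 on the no siRNA arrays, a difference of -0.16 (95% interval -0.54 to 0.23). Groups did not overlap for 3 of the 6, MDM2, CDKN1A and GDF15, against 34.6% of the table. Those of CDKN1A and of GDF15 overlapped once the incomplete feature of each gene was left out. GDF15 was then at 0.18 and 0.38 on the control siRNA arrays (24 h and 8 h). On the no siRNA arrays it was at 0.49 and 0.28 (24 h and 6 h). The array identifiers in the labels fall into separate ranges for the 2 kinds of control, so that a batch along these ranges and the kind of control cannot be told apart. Of the 19 complete features, 0 passed for time and 0 for kind of control (limma, smallest adjusted p = 0.516 and 0.437).

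**Figure D3:**
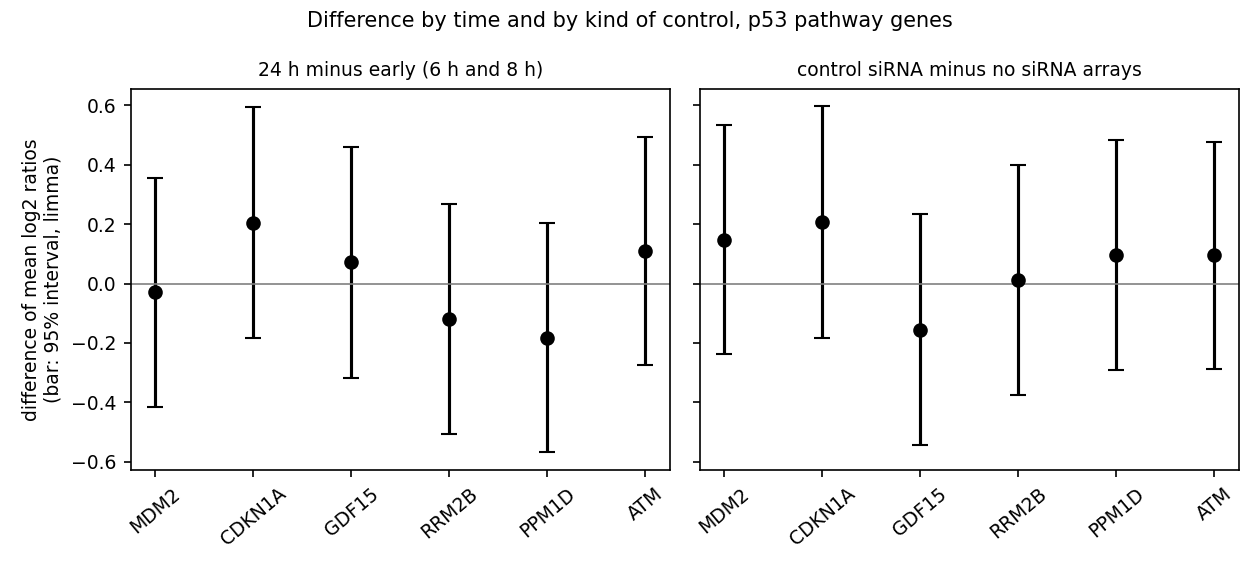
Difference of the mean log2 ratio of each of the 6 genes between 24 h and early arrays (left) and between control siRNA and no siRNA arrays (right), with the 95% interval from limma. All 12 intervals include 0.

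Beyond the 6 genes, 62 of 96 other listed genes of the pathway were measured on 4 arrays. Of these 6 fell, 3 rose and 53 did not pass, with a median of -0.09. Over all genes and unnamed features 10.2% were lower and 5.56% higher, so that both counts were near the background. Without the 24 h array against no siRNA 3 of the 62 passed, and without the 8 h array 2. The whole table of 6798 had 234 and 441 calls in these settings. Without the 24 h array against control siRNA 0 of the 62 passed, and 4 of the whole table. Without the 6 h array 0 passed in the lists and 0 in the whole table. Before adjustment, limma gave 16 and 19 of the 62 a p under 0.05 with these last arrays left out. The whole table then had 1895 and 2179.

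Among 7 measured regulators of p53, RPL11 fell and 6 did not pass (median -0.10). RPL11, a ribosomal protein that can bind and block MDM2, had -0.44 and -0.46 at 24 h against control siRNA and no siRNA, and -0.53 at 8 h and -0.39 at 6 h (mean -0.45 ± 0.06, SD, n = 4; limma adjusted p = 0.0179). RPL11 lost its call without the 24 h array against control siRNA (limma adjusted p = 0.0642) or the 6 h array (0.0546). With either of the others left out it kept the call. MDM4, the relative of MDM2 that holds p53 inactive, had the highest mean of the list, 0.21, and did not pass.

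Of 10 p53 targets in arrest and repair, PLK2 rose and 9 did not pass (median -0.04). PLK2, a polo-like kinase, averaged 0.50 ± 0.27 (SD, n = 4; limma adjusted p = 0.0251), with 0.73 and 0.12 at 24 h against control siRNA and no siRNA and 0.67 at 8 h and 0.48 at 6 h. SFN, which encodes the checkpoint protein 14-3-3 sigma, had the lowest mean, -0.31 (limma adjusted p = 0.0932). It was at -0.19 with the 24 h array against no siRNA left out, and it passed with time and control as terms (limma adjusted p = 0.0181). With these terms 1980 of all 6798 rows passed, against 1073 in the main model. Of 10 targets in cell death, metabolism and signalling, BIK, a BH3-only death gene, rose (0.33 ± 0.17, SD, n = 4; limma adjusted p = 0.0452) and 9 did not pass, with a median of -0.08. PMAIP1, which encodes NOXA, had the lowest mean there, -0.28 (limma adjusted p = 0.107). It was at -0.16 with that array left out, and it passed with both terms (limma adjusted p = 0.0338). With the members, the targets that rose were GDF15, PLK2 and BIK, where 5.56% of the table was higher. The median of both target lists lay slightly below 0. BIK did not pass once any 1 array was left out (limma adjusted p from 0.0524 to 0.128). PLK2 kept its call only when the array left out was the 24 h one against no siRNA (limma adjusted p otherwise from 0.0701 to 0.0912).

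Of 15 DNA damage kinases and mediators, the partners of ATM and PPM1D, 4 fell, 0 rose and 11 did not pass (median -0.15), where 10.2% of the table was lower. MRE11, the nuclease of the break-sensing complex that activates ATM, had -0.42 and -0.73 at 24 h against control siRNA and no siRNA, and -0.51 at 8 h and -0.35 at 6 h (mean -0.50 ± 0.17, SD, n = 4; limma adjusted p = 0.0187). The other 3 that fell form the DNA-dependent protein kinase of end joining. XRCC6, which encodes Ku70, averaged -0.44 ± 0.24, XRCC5, which encodes Ku80, -0.40 ± 0.24, and the catalytic subunit gene PRKDC -0.31 ± 0.13 (SD, n = 4 each; limma adjusted p = 0.0288, 0.0371 and 0.0429). Each lay below 0 on all 4 arrays, as did 23.3% of the table. Their calls as lower rest on the same arrays, so this adds no support. XRCC6, XRCC5 and PRKDC did not pass once any 1 array was left out. Their limma adjusted p ran from 0.0546 to 0.0873, from 0.0559 to 0.114 and from 0.0873 to 0.124. MRE11 kept its call without the 24 h array against no siRNA or the 8 h array (limma adjusted p = 0.0482 and 0.0451). It lost the call when 1 of the others was left out (0.0636 and 0.053). TOPBP1, an activator of ATR, had the highest mean, 0.20, and did not pass. Its mean ran from 0.10 without the 24 h array against no siRNA to 0.33 without the 24 h array against control siRNA.

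Among 11 partners and relatives of CDKN1A, CDK4 fell (-0.44 ± 0.29, SD, n = 4; limma adjusted p = 0.0338), CDKN2D rose and 9 did not pass (median -0.09). CDKN2D, a p19 inhibitor of CDK4 and CDK6, averaged 0.39 ± 0.26 (SD, n = 4; limma adjusted p = 0.0419). Neither CDK4 nor CDKN2D passed once any 1 array was left out (limma adjusted p from 0.0548 to 0.0992 and from 0.0576 to 0.121). Of 9 genes of ribonucleotide reductase and deoxynucleotide supply, 0 passed and 1 had an unadjusted p under 0.05 in limma (median -0.11). Of all 6798 rows, 2405 had such an unadjusted p. DTYMK, at -0.22, and TK2, at 0.19, were the ends of this list. With the 24 h array against no siRNA left out, DTYMK was at -0.13 and TK2 at 0.31, and TK2 was at 0.06 with the 24 h array against control siRNA left out.

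**Figure D4:**
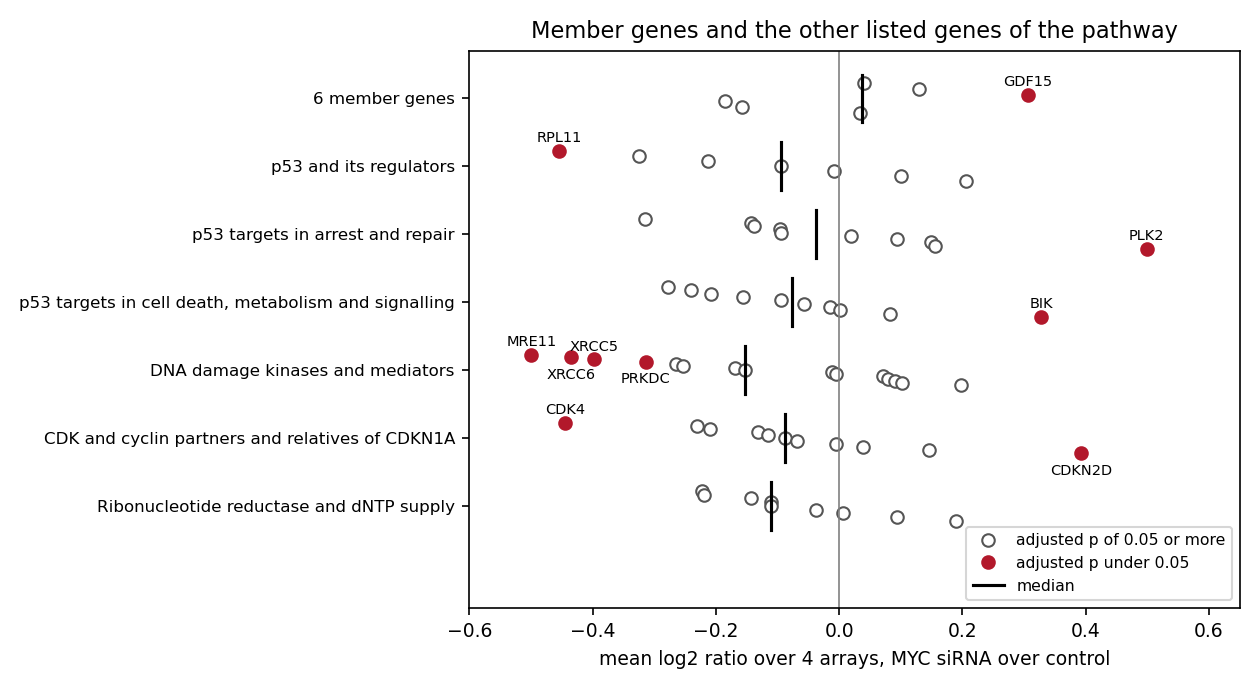
Mean log2 ratio of MYC siRNA over control (horizontal axis) of the 6 member genes and of the 62 other measured genes in 6 lists, with filled points at an adjusted p under 0.05 in limma and a bar at each median. GDF15 is the filled point among the members, and the 4 filled points of the DNA damage list are MRE11, XRCC6, XRCC5 and PRKDC, from -0.50 to -0.31.

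Markers of other lineages were read as a check beside the genes that rose. Of 8 T cell markers, all measured, 0 passed, with a median of 0.19 and a range of 0.02 (CD2) to 0.33 (CD4). CD4 (limma adjusted p = 0.0599) passed with scaled arrays (0.0379), with complete features (0.0298) and with time and control as terms (0.0123). In these settings 1277, 1175 and 1980 rows of the table passed, against 1073 in the main one. Monocyte markers were measured for 2 of 8 genes (ITGAM 0.09 and CD68 0.17) and erythroid markers for 3 of 6 (median 0.02, HBA1 -0.01 and KLF1 0.25), and 0 passed. Of 6 B cell markers 5 were measured, with a median of 0.10, and CD79A rose (0.41 ± 0.27, SD, n = 4; limma adjusted p = 0.039), while CD22 was lowest at -0.06. CD79A did not pass once any 1 array was left out (limma adjusted p from 0.0711 to 0.103, mean 0.28 with the 24 h array against no siRNA left out). The part of such shifts in the values of GDF15, PLK2 and BIK was not tested.

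The named genes most like each member were found by the root mean square difference of log2 ratios over the 4 arrays, among 3953 other named genes. For GDF15 these were OSBPL10, at 0.023, and FOXD1, at 0.045. For CDKN1A they were COX14 (0.053) and OSMR (0.054), and for RRM2B TAB1 (0.032) and MORC3 (0.034). PPM1D was nearest to PRKAR1A (0.021) and to PCNA (0.033), the replication clamp that p21 binds. MDM2 was nearest to SIGIRR (0.023) and to the p53 target PLK3 (0.030), and ATM to VRK2 (0.030) and MEF2A (0.034). The median difference to all named genes ran from 0.249 (ATM) to 0.385 (GDF15). Among the members, RRM2B and PPM1D were closest (0.06) and GDF15 and RRM2B furthest apart (0.524). These distances describe 4 arrays and carry no test.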

How the data were processed

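The authors deposited processed log ratios, which are read here as log2. The sources used here do not give the log base, the direction, the normalization or why some cells are empty. Values were signed and centred near 0 (medians of -0.034 to 0.014) and were taken as log2 of Cy5 over Cy3. Scanner intensities were not used, so signal over background is unknown.

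Symbols came from the platform annotation and were updated by Entrez ID through RefSeq (GRCh38.p14, names alone), with 10124 features matched. Each gene is the per-array mean of its features that had a value, and unnamed features stayed separate. This gave 6798 rows complete on 4 arrays. Their mean was tested against 0 with limma 3.58.1 (R 4.3.3), and time and kind of control as 2 terms of 1 model, with Benjamini-Hochberg adjustment over all rows and a threshold of 0.05. Complete single features (10161) were tested alike. Each comparison had 4 arrays, which limits the precision: the median SE of a mean was 0.0951. The time and control terms had 1 residual degree of freedom against 17.5 prior ones, so their errors rest mostly on the spread pooled over rows. The means had 3 residual degrees of freedom against 6.31 prior ones (8.15 for single features), so their errors also draw on pooled spread. The p-values reflect only spread between these 4 arrays, of the row and pooled over rows, which may be technical. A dye bias of single features cannot be told apart from a response.

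The members and lists were chosen with earlier results of these data known. Named genes were the members, MYC, listed genes that passed, the lowest and highest of each list, and the 2 genes most like each member. Alternatives were centring, scaling, feature medians, complete features, rows with at least 2 values, time and control as terms, robust empirical Bayes and left-out arrays. The code was tested on simulated data.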

Additional observations from a re-analysis of the deposited data

Results flagged for a closer look

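An array lying far from the other 3 was looked for in 49 sets of 4 values. These were the members, their complete features and the other named genes. In 6 sets such an array was found, where chance gives about 1 in 20 if sets are independent and arrays equal in spread. The sets here are not independent, and some genes were named for passing or for extreme means. The count was therefore not tested against that rate. For CDKN1A it was the 24 h array against control siRNA, at 0.41, and for CDKN1A feature 27200_1 the 6 h array, at 0.21. The 24 h array against no siRNA was the outlying one for PPM1D feature 35214_1 (-0.75), ATM feature 16839_1 (-0.72), GDF15 feature 27525_1 (0.18) and CD79A (0.81). That array also had the widest spread over all features.

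In features with empty cells, the 24 h values and the early values had opposite signs for CDKN1A feature 16929_1, with 1.54 and 0.14 at 24 h and -0.65 at 6 h, and for GDF15 feature 17057_1, with 0.24 at 24 h and -0.11 at 8 h. These differences were not tested, since too few arrays had a value.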

How the results depend on the processing

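The labels carry no replicate numbers by which arrays could be paired. The time term was fitted beside the kind of control, so it compares 24 h and early arrays within each kind of control. Keeping rows with 2 values, or leaving out an array, leaves no residual degree of freedom for the time and control terms and was not run for them. Over 7 other settings GDF15 ranged from 0.26 to 0.33 and passed in 5. It did not with feature medians (0.26) or with rows of at least 2 values (0.31, adjusted p = 0.0621). Left-out arrays gave 0.25 to 0.34 for GDF15, -0.0057 to 0.0757 for MDM2, read by feature 31760_1, and -1.08 to -0.77 for MYC. The number of changed rows ran from 0 to 441 over left-out arrays (1980 with time and control as terms), that of single features from 238 to 1245 (3371 with the terms), that of member features from 0 to 3 (2 with rows of at least 2 values) and that of other pathway genes from 0 to 3 (5 with rows of at least 2 values, 14 with the terms).

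The count of rows that differed by time, 8, was 61 with centred and 0 with scaled arrays, 98 with feature medians, 26 with complete features, 5 with robust empirical Bayes, 74 over single features and 0 without the control term. That by kind of control, 6, was 87, 0, 162 and 37 under the first 4 of these, 57 over single features and 0 without the time term. Signs that turned belonged to values near 0 or to incomplete features. For CDKN1A the time difference was -0.10 with feature medians and -0.26 with complete features, and the control difference -0.17 and -0.22. With scaled arrays the GDF15 time difference was -0.033, the RRM2B control difference -0.037 (-0.021 with centred arrays), CDKN1A feature 27200_1 0.0041 and CD2 -0.0063. Over left-out arrays ATM features 31027_1 and 28860_1 ran from -0.153 to 0.0357 and from -0.103 to 0.0693, CDKN1A feature 27200_1 from -0.0877 to 0.0187, RRM2B feature 36196_1 from -0.0087 to 0.0873, CD2 from -0.058 to 0.091 and HBA1 from -0.0626 to 0.0202. The cause was not tested.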
